A study of Mus musculus with 4 samples.

Results

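Heat shock chaperone genes were described in single cells of the mouse cortex after experimental stroke. The set held 10 genes, chosen by symbol from the gene table of 32285 genes: the stress-inducible Hsp70 pair Hspa1a and Hspa1b, the constitutive Hsp70 Hspa8, the Hsp110 gene Hsph1, the Hsp40 co-chaperones Dnajb1 and Dnaja1, the cytosolic Hsp90 gene Hsp90aa1, the small heat shock protein gene Hspb1, and the mitochondrial chaperonin genes Hspd1 and Hspe1. UMIs (unique molecular identifiers, 1 per captured transcript) were summed per gene, cell class and library, and Hspa1a and Hspa1b were also summed as a pair because reads from these near-identical copies may be split between them.

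Mice received either a sham operation or dMCAO stroke (occlusion of the distal middle cerebral artery). Sham animals got an isotype control antibody, and stroke animals got the isotype control, an antibody to VCAM1 (anti-VCAM1) or one to VLA4 (anti-VLA4), which makes 4 groups. All mice were male C57BL/6N animals, 10 months old, and antibody was given for 10 weeks. VCAM1 is an endothelial adhesion molecule, and VLA4 is the integrin on leukocytes that binds it. Cortex from 4 to 5 mice was pooled per group, which after stroke was infarct core and about 2 mm of surrounding tissue. The 2 mm margin is listed for the sham group too, which had no occlusion and so no infarct core. Tissue was digested enzymatically, labelled with CD31 and CD45 antibodies, depleted of dead cells, and made into 1 droplet library per group. With 1 pooled library per group there was no replicate check, no test and no p-value. Each difference below is a difference between libraries, and the 95% intervals beside the values reflect the counting of UMIs and nothing else. PCR, dissociation and animal-to-animal variation are outside these intervals.

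Heat shock proteins bind unfolded proteins and keep them soluble until they refold or are degraded. When misfolded protein accumulates, the transcription factor HSF1 is released from chaperone complexes, trimerises and binds heat shock elements, inverted repeats of the unit nGAAn, upstream of its targets. In brain tissue, inducible Hsp70 is a classical marker of ischaemic and proteotoxic stress, and tissue dissociation can induce the same genes.

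Promoter sequence was examined because the members are textbook HSF1 targets. RefSeq promoter windows (GRCm38.p6, the build that the submitters' mm10 corresponds to) were matched for 8 of the 10 members, and the 250 bases upstream of each start were searched. A 2-unit element, GAANNTTC or TTCNNGAA, both palindromic and therefore the same on both strands, was present in 7 of the 8 members, the exception being Dnajb1, and in 14.6% of 27025 genes with a window (for a gene with several starts, in at least 1 of its windows). A 3-unit element, in which a further unit of alternating direction follows a 2-unit element and so overlaps it by construction (both strands searched), was present upstream of Hspe1 and Hspd1 and of 0.514% of genes. The stretches below, 5′ to 3′ on the strand of each gene, show the matched letters in capitals, and they are shown because the pair and the chaperonin genes each share their element. A match describes these letters only and does not show that a factor binds.
Hspa1a (chr17:34972181-34972280, minus strand): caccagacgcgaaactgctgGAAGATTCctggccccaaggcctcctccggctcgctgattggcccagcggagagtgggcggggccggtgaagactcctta
Hspa1b (chr17:34959263-34959362, minus strand): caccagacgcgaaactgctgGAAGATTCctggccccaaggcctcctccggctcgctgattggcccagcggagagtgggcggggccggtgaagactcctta
Hspb1 (chr5:135887782-135887881, plus strand): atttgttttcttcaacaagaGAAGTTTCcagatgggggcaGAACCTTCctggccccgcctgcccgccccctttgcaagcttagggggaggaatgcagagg
Hspe1 (chr1:55088053-55088082, plus strand): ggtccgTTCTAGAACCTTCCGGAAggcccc
Hspd1 (chr1:55088053-55088082, minus strand): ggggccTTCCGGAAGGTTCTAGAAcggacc
The Hspa1a and Hspa1b stretches were identical letter for letter, and their whole 250-base promoters matched at 247 of 250 positions. Hspe1 and Hspd1, transcribed away from each other, shared 1 stretch read from opposite strands. For Hspd1 this holds for 1 of its 2 starts in the table, and the window of the other start held 0 elements. Hspb1 carried 2 separate elements.

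The pair could be told apart near the 3′ end. Of all 90-base windows of the Hspa1a transcript (2967 bases), 49.3% also occurred in the Hspa1b transcript (2803 bases), but 0 of those in the last 500 bases did. Since a 3′ library reads mostly this end, both the single genes and their sum are given.

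In the libraries, 1516 cells (sham), 2832 (stroke isotype), 4662 (anti-VCAM1) and 6209 (anti-VLA4) passed the cell filter, with medians of 4516.5 to 5466 UMIs per cell. Clusters were named from fixed markers, and 4 classes had at least 50 cells in every library: endothelial-like, microglia-like, border macrophage-like and T-cell-like. In each class 10 of 10 markers were higher than in the remaining cells in every library. The same markers had given the names, so this is not an independent check of them. Endothelial-like cells numbered 459, 531, 1931 and 2425 and microglia-like cells 692, 1480, 1817 and 2459, in the order sham, stroke isotype, anti-VCAM1, anti-VLA4, which is kept below. A further cluster of 92, 115, 449 and 620 cells had 10 of 10 endothelial markers but stayed unnamed under the naming rule. It is not in the endothelial-like class, and is called arterial below after leading genes such as Gkn3 and Bmx. Sham and stroke isotype shared 53 barcodes, 3.50% of the smaller library, and 50 of these held fewer UMIs in stroke isotype (median 603 against 18200). Other library pairs shared 1 to 7. Without shared barcodes the pair's stroke ratio was 0.94 in place of 1.02 in microglia-like cells, -0.30 in place of -0.31 in endothelial-like cells, 1.27 in place of 1.48 in border macrophage-like cells and 1.42 in place of 0.89 in T-cell-like cells.

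The inducible Hsp70 pair had a different order of libraries in each of the 2 large classes. Levels are CPM, the gene's UMIs scaled to a common class total. In microglia-like cells, the resident macrophages of brain parenchyma, the pair stood at 219.8 CPM in sham, 446 in stroke isotype, 313 under anti-VCAM1 and 574 under anti-VLA4, from 1127 to 7695 UMIs. The sham library was lowest, anti-VLA4 highest, and no counting intervals overlapped. In endothelial-like cells the pair stood at 266, 215, 307 and 351 CPM, so that stroke isotype was lowest and both antibody libraries were above sham. The order of sham and stroke isotype was not shared by all endothelial-like clusters. Of 4 clusters with at least 20 cells in both, the log2 ratio of stroke isotype over sham was above 0 in 2 and below 0 in 2. It was 0.10 in cluster 0, which made up 57.1% of the class in sham and 49.0% in stroke isotype, and -0.93 in cluster 1. Against stroke isotype, the pair was higher in 6 of 6 clusters under each antibody. Border macrophage-like cells held 174, 487, 403 and 418 CPM, with sham below all 3 stroke libraries. T-cell-like cells were lowest of the 4 classes in every library, at 68.3, 127, 88.0 and 126 CPM.

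**Figure D1:**
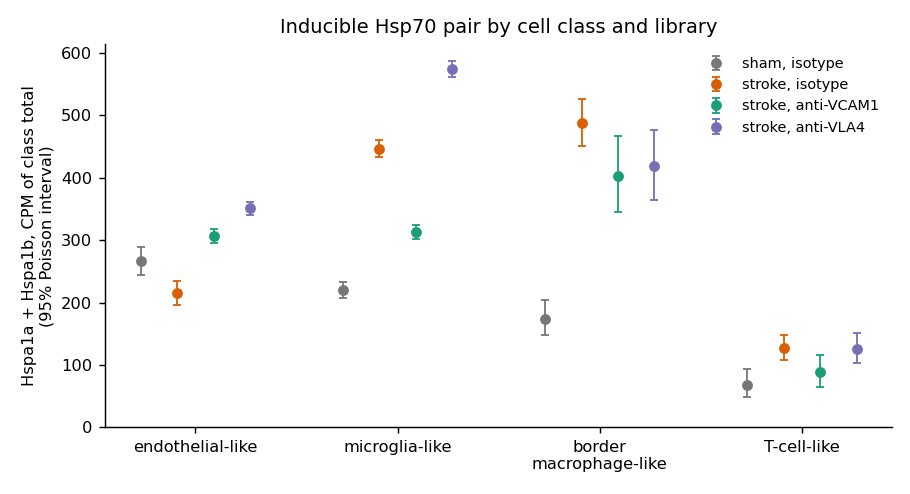
CPM of Hspa1a and Hspa1b summed (y axis, with 95% Poisson intervals) in 4 cell classes, 1 point per library. Microglia-like points run from 219.8 in sham to 574 under anti-VLA4, while the lowest endothelial-like point is stroke isotype at 215.

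Both genes of the pair contributed to the microglia-like difference between sham and stroke isotype. Hspa1a was at 147, 261, 179 and 335 CPM, and its log2 ratio of stroke isotype over sham (with 1 CPM added to each) was 0.82 (0.71 to 0.95). Hspa1b was at 73.0, 185, 134 and 239 CPM, with a ratio of 1.33 (1.18 to 1.51). For the sum the ratio was 1.02 (0.93 to 1.12), a 2.02-fold difference. Both genes were lower under anti-VCAM1 than in stroke isotype, the sum by a log2 ratio of -0.51 (-0.58 to -0.44), and higher under anti-VLA4, by 0.36 (0.31 to 0.42). The antibody comparisons share the stroke isotype library, so a high or low value there enters both.

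Every microglia-like cluster held the same order for the pair. The 6 clusters were built without the members and related stress genes. Their stroke log2 ratios ran from 0.69 to 1.66, their anti-VCAM1 ratios from -1.02 to -0.21 and their anti-VLA4 ratios from 0.25 to 0.74. The largest cluster in sham, cluster 3, was at 243, 493, 425 and 825 CPM. Cluster makeup did differ between libraries: cluster 3 made up 40.5% of microglia-like cells in sham and 15.0% under anti-VLA4, and cluster 2 made up 15.8% and 32.8%.

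**Figure D2:**
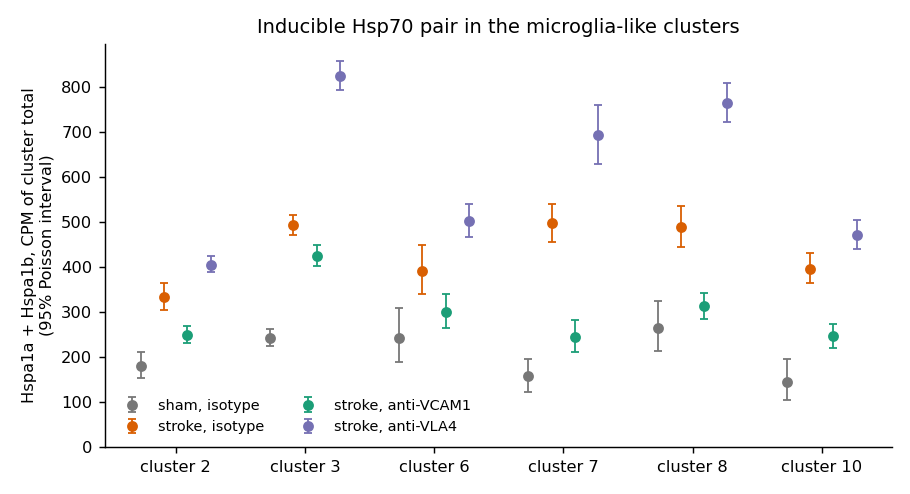
CPM of the Hspa1a and Hspa1b sum (y axis, with 95% Poisson intervals) in each of the 6 microglia-like clusters, 1 point per library. In all 6 clusters sham is lowest and anti-VLA4 highest, with anti-VCAM1 below stroke isotype.

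The share of cells with a UMI of the pair followed the same order at equal depth. After each cell was thinned to 1000 UMIs, the pair was detected in 11.0% (8.79 to 13.6), 23.7% (21.5 to 26.0), 16.3% (14.6 to 18.1) and 28.3% (26.5 to 30.2) of microglia-like cells. Before thinning, 31.4%, 40.4%, 30.5% and 48.6% of cells held a UMI of the pair, with 7341.5, 6095, 5309 and 5201 median UMIs per cell. Between 3 and 37 shallower microglia-like cells per library were left out (3, 37, 25 and 36), and 15 to 79 endothelial-like cells. In endothelial-like cells the thinned shares were 14.0%, 11.3%, 20.8% and 21.8% (unthinned 31.2%, 24.1%, 43.2% and 51.5%, median depths 3784, 3703, 3870 and 4168). No class is known to lack the pair, and T-cell-like cells had the lowest thinned shares, 2.78% to 10.2%, at medians of 3859 to 5726 UMIs. The 1% of microglia-like cells with most pair UMIs held 12.1% to 21.5% of them.

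**Figure D3:**
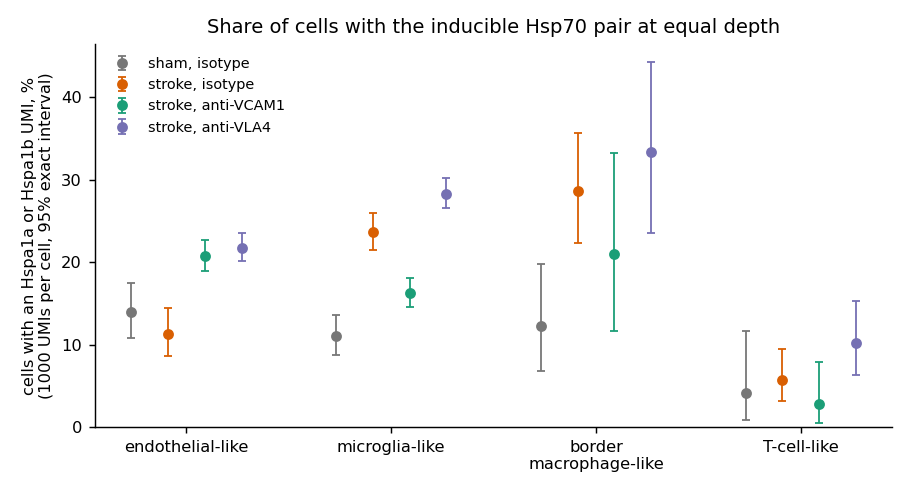
Percent of cells with at least 1 Hspa1a or Hspa1b UMI after thinning to 1000 UMIs per cell (y axis, with 95% exact binomial intervals), by class and library. Microglia-like shares run from 11.0% in sham to 28.3% under anti-VLA4, and endothelial-like shares are higher in both antibody libraries than in stroke isotype.

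In border macrophage-like cells, the macrophages of meninges and perivascular spaces, the pair differed more between sham and stroke isotype than in microglia-like cells, though the difference between classes was not tested. Hspa1a was at 128, 306, 248 and 289 CPM and Hspa1b at 46.4, 180.4, 155 and 129 CPM. Stroke log2 ratios were 1.26 (0.96 to 1.57) and 1.94 (1.48 to 2.47). Of the members, 3 were past 1.5-fold higher in this class, where 5.21% of 5852 genes were (5.5% lower, 0 members), and the third was Hspb1 with 5 against 12 UMIs. With so few UMIs Hspb1 is not among those genes, and on the same minimum of 50 UMIs 2 of 9 members were past 1.5-fold higher. The Hspb1 ratio of 0.60 was -0.70 with thinned cells and -0.20 with cells weighted equally. The pair's ratio was -0.27 (-0.52 to -0.03) under anti-VCAM1 and -0.22 under anti-VLA4, with an interval that spanned 0. Under anti-VCAM1 0 members were past 1.5-fold in this class, beside 5.89% of genes higher and 8.02% lower.

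T-cell-like cells gave few UMIs of the pair. There were 39, 161, 50 and 109, and the stroke ratio was 0.89 (0.38 to 1.44). In stroke isotype 3 of 249 cells held 63.4% of the pair's UMIs, and without the 1% of cells with most member UMIs the ratio was 0.48. Hspa1b was the member past 1.5-fold higher there (13 against 80 UMIs), beside 6.66% of 5376 genes (15.8% lower, 0 members). Under anti-VLA4, Hsph1 was higher by a log2 ratio of 0.88 (0.55 to 1.24), from 102 to 189 CPM, and the second member past 1.5-fold was Hspb1 with 3 against 21 UMIs, where 3.77% of 5630 genes were past 1.5-fold higher and 10.2% lower (0 members). Of those 21 UMIs, 71.4% were in 5 cells with UMIs of at least 3 endothelial markers, and Hspb1 was at 24.2 CPM with these cells and 7.21 CPM without them. Under anti-VCAM1, Hspb1 was past 1.5-fold higher (3 against 10 UMIs) and Hspa1b lower (80 against 22 UMIs), beside 5.98% and 8.48% of genes. Of those 10 UMIs, 70.0% were in 2 cells with at least 3 endothelial markers (17.6 CPM with them, 5.55 CPM without), and the Hspa1b ratio of -0.69 was 0.47 with thinned cells. Summed endothelial markers in T-cell-like cells were 80.6, 83.8, 303 and 355 CPM. In the 3 T-cell-like comparisons Hspb1 had under 50 UMIs and is not among the genes behind these shares.

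Hspa8, which encodes the constitutive Hsp70 that serves clathrin uncoating and routine folding, differed little in microglia-like cells. It stood at 923, 979, 849 and 949 CPM there, a spread of less than 1.5-fold. In endothelial-like cells it stood at 1241, 1291, 1716 and 1878 CPM, and both antibody libraries were above both isotype libraries. Against stroke isotype its endothelial-like ratio was 0.41 (0.35 to 0.47) under anti-VCAM1 and 0.54 (0.49 to 0.60) under anti-VLA4, and stroke isotype against sham gave 0.06 (-0.02 to 0.13).

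Hsph1 encodes Hsp110, a nucleotide exchange factor that lets Hsp70 release its substrate. In microglia-like cells it had the library order of the pair, at 54.0, 100.3, 59.5 and 109 CPM. Its stroke ratio was 0.88 (0.70 to 1.09), its anti-VCAM1 ratio -0.74 (-0.90 to -0.60) and its anti-VLA4 ratio 0.11, with an interval that spanned 0. In endothelial-like cells it was at 52.1, 45.9, 74.2 and 68.5 CPM, with ratios of -0.18 (-0.59 to 0.22), 0.68 (0.39 to 1.01) and 0.57 (0.28 to 0.89). Hence Hsph1 was lower under anti-VCAM1 than in stroke isotype in microglia-like cells and higher in endothelial-like cells.

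The Hsp40 co-chaperones deliver substrates to Hsp70 and stimulate its ATPase. Dnajb1, the main inducible member of this group, was at 101, 114, 72.5 and 93.4 CPM in microglia-like cells and 51.1, 33.4, 54.5 and 57.5 CPM in endothelial-like cells. It was lowest under anti-VCAM1 in the former and lowest in stroke isotype in the latter. The anti-VCAM1 ratio was -0.65 (-0.79 to -0.52) in microglia-like cells and 0.69 (0.35 to 1.08) in endothelial-like cells. Dnaja1 was at 362, 382, 329 and 413 CPM in microglia-like cells and at 705, 597, 996 and 1049 CPM in endothelial-like cells. Its endothelial ratios were 0.74 (0.66 to 0.82) under anti-VCAM1 and 0.81 (0.73 to 0.90) under anti-VLA4, with the same sign in 6 of 6 endothelial-like clusters for each antibody.

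Hsp90aa1 encodes the stress-responsive cytosolic Hsp90, which matures kinases and steroid receptors and holds HSF1 inactive. It was at 290.3, 409, 275 and 446 CPM in microglia-like cells, the order of the pair except that anti-VCAM1 was not above sham. The ratios were 0.49 (0.41 to 0.58), -0.57 (-0.64 to -0.50) and 0.13 (0.07 to 0.18). In endothelial-like cells it was at 346, 310.2, 396 and 424 CPM, with ratios of -0.16 (-0.31 to -0.01), 0.35 (0.23 to 0.47) and 0.45 (0.34 to 0.57).

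Hspb1, which encodes the small heat shock protein Hsp27 that holds unfolded proteins and stabilises actin, separated the classes. Endothelial-like cells held 1471, 1550, 2253 and 2231 CPM. The microglia-like, border macrophage-like and T-cell-like classes held 1.75 to 165 CPM, so their ranges did not overlap that of endothelial-like cells. Of the smaller classes, astrocyte-like cells held 275 to 758 CPM (as few as 5 cells per library). Neutrophil-like cells held 0 to 226 CPM (as few as 7). At 1000 UMIs per cell, Hspb1 was detected in 61.7%, 64.5%, 78.4% and 81.0% of endothelial-like cells and in 0.581% to 1.11% of microglia-like cells. Within endothelial-like clusters the difference between stroke isotype and the antibody libraries was uneven: cluster 0 went from 1192 to 1577 and 1552 CPM, cluster 1 from 2208 to 2317 and 2399, and cluster 4 from 3192 to 3269 and 3080. Cluster 4, among whose leading genes Hspb1 stood, made up 3.70%, 8.66%, 26.9% and 29.6% of endothelial-like cells. With cluster shares held equal the Hspb1 ratio was 0.24 in place of 0.54 for anti-VCAM1 and 0.22 in place of 0.53 for anti-VLA4.

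**Figure D4:**
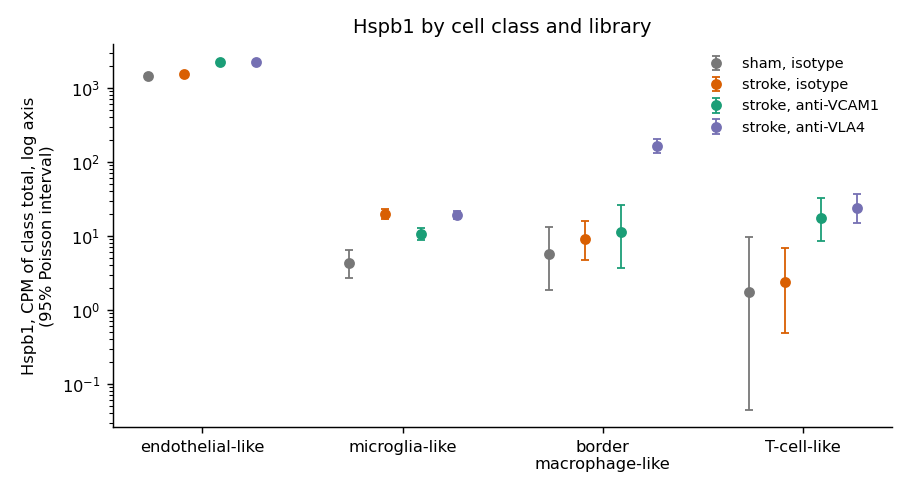
CPM of Hspb1 (log y axis, with 95% Poisson intervals) in 4 cell classes, 1 point per library. Endothelial-like points lie between 1471 and 2253 and all leukocyte points lie at 165 or below.

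Hspb1 UMIs in leukocytes sat in few cells. In microglia-like cells the level was 4.29, 19.7, 10.7 and 19.0 CPM (22, 184, 108 and 254 UMIs), and the 1% of cells with most of them held 56.5% to 91.3%. The stroke ratio of 1.97 (1.56 to 2.91) therefore rests on 9 cells with an Hspb1 UMI in sham and 30 in stroke isotype. Cells with UMIs of at least 3 endothelial markers held 0% to 37.0% of these UMIs, and the levels without them were 4.29, 16.0, 6.86 and 13.5 CPM. In border macrophage-like cells under anti-VLA4, 95.5% of 88 Hspb1 UMIs were in 9 such cells, and the level was 165 CPM with them and 9.10 CPM without. Summed endothelial markers in that class were 61.1, 42.3, 355 and 1974 CPM. The single member past 1.5-fold higher in that comparison was Hspb1, beside 6.67% of 5305 genes (11.1% lower, 0 members).

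The mitochondrial chaperonin Hspd1 (Hsp60) and its lid Hspe1 (Hsp10), which fold imported matrix proteins, differed by less than 1.5-fold in every comparison within the 2 large classes. In microglia-like cells Hspd1 was at 93.4, 103, 88.6 and 105 CPM and Hspe1 at 171, 215, 209.6 and 225 CPM. Hspe1 was therefore lower in sham than in the 3 stroke libraries, with a stroke ratio of 0.33 (0.21 to 0.44), and its anti-VCAM1 interval of -0.12 to 0.05 spanned 0. Endothelial-like cells held 123, 126, 165 and 168 CPM of Hspd1 and 94.96, 112, 151 and 144 CPM of Hspe1. The anti-VCAM1 ratios there were 0.38 (0.20 to 0.58) and 0.43 (0.23 to 0.63). These genes, head to head on chromosome 1 and sharing the element shown above, had a within-library correlation across cells of 0.28 on average in microglia-like cells and 0.12 in endothelial-like cells. Hspa8 and Dnaja1, which lie on different chromosomes, correlated at 0.38 in each of these classes. The part of the shared element in the correlation was not tested.

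Counted over the 10 members, the stroke comparison in microglia-like cells had 4 past 1.5-fold higher (Hspa1a, Hspa1b, Hsph1 and Hspb1) and 0 lower, beside 2.26% and 1.74% of 10686 genes, and 8 intervals lay above 0. The members' median log2 ratio was 0.41, and that of all genes -0.04. Under anti-VCAM1, 3 were past 1.5-fold lower (Hsph1, Hspb1 and Dnajb1), beside 1.08% of 11188 genes (1.18% higher, 0 members), and 9 intervals lay below 0. The Hspb1 ratio there, -0.83, was 1.10 with called doublets kept, and 37.0% of its anti-VCAM1 UMIs were in cells with endothelial markers. The medians were -0.50 for members and 0.03 for all genes. Under anti-VLA4, 0 members were past 1.5-fold in either direction, beside 1.39% of 11403 genes higher and 1.93% lower, and 4 intervals lay above and 2 below 0. The median was 0.09, against 0.06 for all genes.

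In endothelial-like cells, the stroke comparison had 1 member past 1.5-fold lower, Dnajb1 at -0.60 (-1.06 to -0.17), beside 2.81% of 8297 genes, and 0 past 1.5-fold higher, beside 2.77%. The Dnajb1 ratio stayed below 0 under every alternative run but did not reach 1.5-fold in 9 of 15, and it was closest to 0 at -0.39 with cells weighted equally. Of the intervals, 4 lay below 0 and 1 above it, that of Hspb1 at 0.08 (0.00 to 0.15). Under anti-VCAM1, 4 members were past 1.5-fold higher (Hspa1a, Hsph1, Dnajb1 and Dnaja1), beside 2.88% of 10028 genes, and under anti-VLA4, 3 were (Hspa1a, Dnajb1 and Dnaja1), beside 3.12% of 10387 genes. Lower by 1.5-fold were 7.07% and 8.76% of genes and 0 members. In each, 10 of 10 ratios were above 0 and 9 intervals lay above 0, Hspa1b being the exception at 0.20 and 0.23 with intervals that spanned 0. The members' medians were 0.48 and 0.53, against -0.04 and -0.06 for all genes. Hspa1a itself was at 191, 143.5, 225 and 267 CPM, with ratios of 0.64 (0.48 to 0.82) and 0.89 (0.73 to 1.06).

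**Figure D5:**
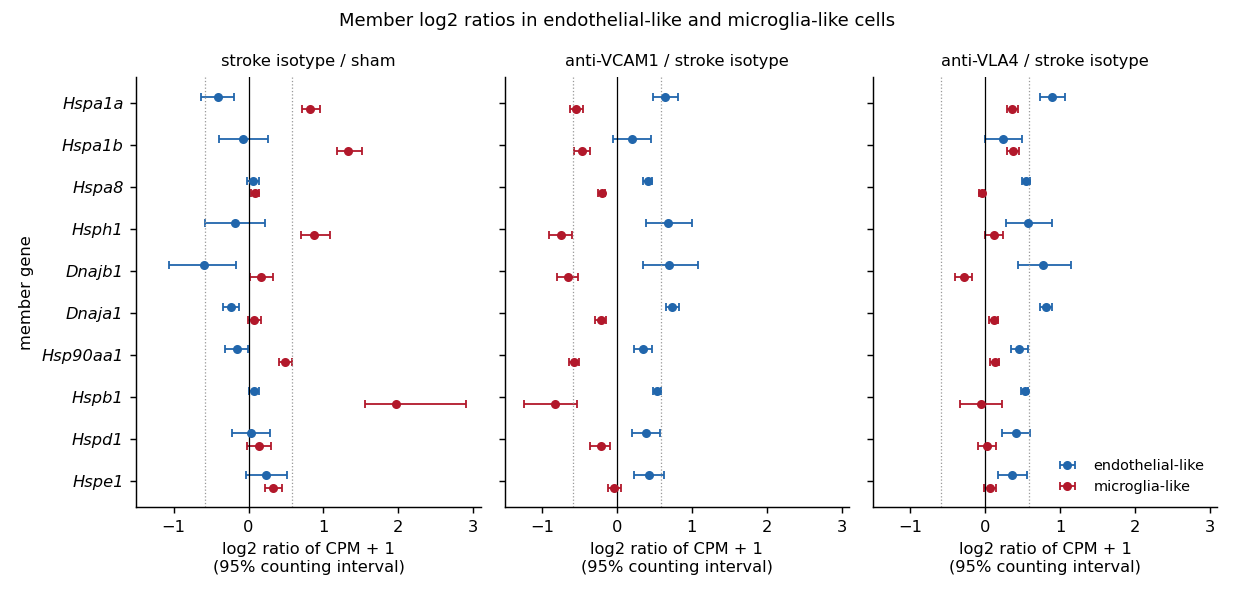
Log2 ratios of CPM plus 1 for the 10 members in endothelial-like and microglia-like cells (x axis, with 95% counting intervals), 1 panel per comparison, with dotted lines at 1.5-fold. In the anti-VCAM1 panel all 10 endothelial-like points lie above 0 and all 10 microglia-like points below 0.

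Several measures differed between libraries alongside the endothelial-like ratios. Ribosomal protein genes took 6.67%, 8.23%, 10.7% and 10.8% of endothelial-like UMIs, and summed immediate-early genes stood at 6278, 5433, 7017 and 6880 CPM. Like the pair, the immediate-early sum was lowest in stroke isotype and above sham under both antibodies. Genes with the shortest spans had median ratios of 0.23 under anti-VCAM1 and 0.22 under anti-VLA4, and those with the longest -0.34 and -0.37 (outer quintiles of genes by span). With the trend on span removed the pair's ratios were 0.24 and 0.44, and those of Hspa1b were -0.08 and -0.03. With cluster shares held equal the pair's anti-VCAM1 ratio was 0.37 and 0 members were past 1.5-fold. TMM, another scaling, moved all endothelial-like ratios up by 0.12 under anti-VCAM1 and 0.14 under anti-VLA4, and the T-cell-like stroke ratios up by 0.17. The part of these measures in the members' ratios was not tested.

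In microglia-like cells the immediate-early genes had another order of libraries. The list includes Fos, Jun and Egr1, which respond to stimulation and dissociation within minutes. Its summed level was 20180, 16150, 13100 and 10850 CPM, highest in sham, where the pair was lowest. Of its 20 genes, 1 (Zfp36) was past 1.5-fold lower in the stroke comparison, 5 under anti-VCAM1 and 8 under anti-VLA4, with 0 higher in each. Under anti-VCAM1 the lowest were Fosb at -1.17 (-1.28 to -1.08), Klf2 at -0.84 and Klf4 at -0.80, and under anti-VLA4 Egr1 at -1.25 (-1.31 to -1.20), Egr2 at -0.97 and Ier2 at -0.95. Of microglia-like UMIs, 7.91% to 9.56% were ribosomal protein genes, 0.848% to 1.15% mitochondrial and 2.77% to 3.22% Malat1. Median UMIs per cell were highest in sham, as given above. Their part in the members' ratios was not tested.

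Microglia-like stroke medians of the other chaperone groups lay between -0.14 and -0.04, beside 0.41 for the members and -0.04 for all genes. The shares of all genes past 1.5-fold are those given above for each comparison. Of 27 measured HSP90, HSP70 and HSF1 partner genes, 7 were above 0 and the median ratio was -0.09, and 1 was past 1.5-fold higher, Dnaja4, an Hsp40 gene named after its value was seen. The lowest among those with at least 200 UMIs included Hsf1 itself, the factor that drives the response, at -0.37 (-0.73 to -0.04), and Bag5, a nucleotide exchange factor of Hsp70, at -0.35. Of the 8 subunits of TRiC, the cytosolic chaperonin of actin and tubulin, 0 were above 0, with Cct3 at -0.36 (-0.56 to -0.16). Among 18 ER chaperone and unfolded protein response genes, 1 was past 1.5-fold lower, Atf4, a transcription factor of the integrated stress response, at -0.65 (-0.84 to -0.47). Under anti-VCAM1 the TRiC subunits were above 0 in 8 of 8 cases and the ER genes in 16 of 18, while the members were below 0 in 10 of 10. The medians were small for TRiC (0.12) and ER genes (0.13), beside 0.03 for all genes and -0.50 for the members. The partners, with 17 of 27 above 0 and a median of 0.02, were near all genes. Mitochondrial proteostasis genes had medians between -0.04 and 0.07 in the 3 comparisons.

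In endothelial-like cells the chaperone lists had medians above 0 in both antibody comparisons, as the members had. This was not particular to chaperones, since the immediate-early list had medians of 0.32 under anti-VCAM1 and 0.26 under anti-VLA4. Of its 19 measured genes, 15 were above 0 under each antibody. Medians were 0.20 and 0.21 for ER chaperones and 0.10 and 0.10 for mitochondrial proteostasis. Of 29 measured partners, 26 were above 0 under anti-VCAM1 and 25 under anti-VLA4, with medians of 0.32 in both. Cacybp, a ubiquitin ligase adaptor with an Hsp90 co-chaperone fold, was at 127 CPM in stroke isotype, 207 under anti-VCAM1 and 204 under anti-VLA4, with ratios of 0.71 (0.53 to 0.90) and 0.68 (0.51 to 0.87). Stip1, which bridges Hsp70 and Hsp90, had ratios of 0.47 and 0.60, and Hsp90ab1, the constitutive Hsp90, had 0.54 (0.49 to 0.59) under anti-VLA4. All 8 TRiC subunits were above 0 under each antibody, with medians of 0.31 and 0.29 and Cct6a highest at 0.46 and 0.57. In the stroke comparison the medians were -0.01 for the partners, 0.02 for TRiC, 0.11 for mitochondrial proteostasis and 0.01 for ER chaperones, against -0.12 for the members. Ahsa1, an activator of the Hsp90 ATPase, stood at 0.53 (0.14 to 0.95) and Chordc1, an Hsp90 co-chaperone, at -0.50 (-0.76 to -0.24).

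Across cells, the sum of the pair correlated with other genes at averages of 0.34 or below. Likeness was the Pearson correlation across cells of log-scaled counts within each library, averaged over the 4 libraries, given as a description, since cells of a library share depth and preparation. In microglia-like cells Hspa1a and Hspa1b correlated with each other at 0.49, and among members the sum was closest to Hsp90aa1 (0.34) and Hsph1 (0.32) and least like Hspb1 (0.04). In endothelial-like cells Hspa1a and Hspa1b correlated at 0.42, and the sum was closest to Hspb1 (0.32) and Dnaja1 (0.30). Outside the members, the 5 highest in microglia-like cells were Hsp90ab1 (0.30), Jun (0.23), Jund (0.20), Ubb (0.15) and Klf6 (0.14), and no other gene of 8244 had a correlation above 0.1 in each library. In endothelial-like cells 67 of 7420 genes did, led by Hsp90ab1 (0.28), Jun (0.27), Klf2 (0.27), Jund (0.27) and Klf4 (0.25).

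Across the 4 classes with at least 50 cells in every library, the endothelial-like range lay apart from the others for Hspb1 and Hspe1. It was above them for Hspb1 and below them for Hspe1. Smaller classes are not in this order, and neutrophil-like cells, with as few as 7 per library, held 104 to 205 CPM of Hspe1. Hspe1 was highest in T-cell-like cells, at 371 to 465 CPM, above the border macrophage-like range of 221 to 292 CPM, and lowest in endothelial-like cells, at 94.96 to 151 CPM. Hspa8 was lowest in microglia-like cells, whose range of 849 to 979 CPM lay below that of T-cell-like cells, 1119 to 1597 CPM. Hspd1 was lowest in microglia-like cells as well, at 88.6 to 105 CPM, against 109.5 to 159 CPM in border macrophage-like cells. For Hsph1, Dnajb1, Dnaja1 and Hsp90aa1 the ranges of neighbouring classes overlapped at every step of the order. Summed over the 10 members, endothelial-like cells held 4350, 4280, 6113 and 6371 CPM, and no other class exceeded 3903 CPM. Hspb1 alone gave 1471, 1550, 2253 and 2231 CPM of these endothelial-like sums. It gave 1.75 to 165 CPM in the microglia-like, border macrophage-like and T-cell-like classes. The sums therefore do not rank the classes for the remaining members.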

How the data were processed

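Single-cell RNA of 4 pooled libraries was counted. Each deposited matrix holds unnormalized UMI counts by gene and cell barcode. Per the file headers they were written by Cell Ranger 7.0.1. The submitters' processing notes name Cell Ranger 6.0.0, Seurat 4.3.0.1 and the builds mm10 and GRCh38. Deposited barcodes held 10008987, 17130182, 25099141 and 34721356 UMIs (sham, stroke isotype, anti-VCAM1, anti-VLA4), and the smallest barcode total was 500 to 510 UMIs. How the stained cells were gated is not given in the sources used here.

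Cells with at least 500 UMIs, 200 genes and at most 10% mitochondrial UMIs were kept. Scrublet in scanpy 1.11.5 marked 9, 24, 58 and 124 doublets, which were left out. Cells were clustered on 2000 variable genes, 30 principal components and 15 neighbours with leidenalg 0.10.2 at resolution 1, without the members and listed genes (99 in all). Of the kept cells, 7.59% to 15.1% per library were in clusters that stayed unnamed. Class names were rebuilt from markers, since no cell annotation was used.

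CPM has exact Poisson intervals. Log2 ratios use a pseudocount of 1 CPM, and their conditional binomial intervals omit it. Past 1.5-fold was the threshold, and genes needed 50 UMIs over the libraries compared to enter the background. The script that computes ratios and intervals was tested on simulated counts with known differences, which says nothing about the groups compared here. TMM came from edgeR 4.0.16 in R 4.3.3. Gene spans were matched for 99.8% of 32285 gene IDs in GENCODE M21, and promoters came from RefSeq GRCm38.p6. All 10 members were named, with up to 3 genes per other list (the largest absolute ratios among genes with at least 200 UMIs) and the 5 genes most correlated with the pair. The listed alternatives changed the naming, filters, scaling, pseudocount, thinning and weighting of cells. The members and lists were chosen with earlier results of these data known.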

Additional observations from a re-analysis of the deposited data

Results flagged for a closer look

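Opposite differences between cell classes stood out for a pair of members under anti-VCAM1. The endothelial-like log2 ratio exceeded the microglia-like one by 1.43 for Hsph1 and by 1.34 for Dnajb1, since each was past 1.5-fold higher than stroke isotype in endothelial-like cells and past 1.5-fold lower in microglia-like cells. With 1 library per group the difference was not tested. In 6 clusters of each class, Hsph1 was higher in 5 endothelial-like clusters and lower in 6 microglia-like clusters, and Dnajb1 was higher in 5 and lower in 4. The endothelial-like Hsph1 ratios were uneven: 0.83 in cluster 0, but 0.02 in cluster 1 and -0.10 in cluster 4. Clusters 1 and 4 made up 31.6% and 26.9% of the class under anti-VCAM1. Ratios of 6.5, 3.5 and 2.4 in clusters 13, 14 and 15 rest on 27, 25 and 43 stroke isotype cells. The microglia-like ratios were uneven as well. Hsph1 was at -1.955 in cluster 7 and -0.74 in cluster 3, but between -0.30 and -0.13 in clusters 2, 6, 8 and 10. Dnajb1 was at 0.16 and 0.28 in clusters 2 and 6, and between -1.296 and -0.23 in clusters 3, 7, 8 and 10. With cluster shares held equal, no endothelial-like member was past 1.5-fold under anti-VCAM1.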

How the results depend on the processing

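No paired analysis was possible because each group had 1 library, and leaving out a replicate was not possible for the same reason. Of 132 log2 ratios recomputed under the alternatives, giving 1716 values, 1524 moved by less than their counting interval, 188 moved further and 4 changed sign from a called value. The latter were Hspb1 in microglia-like cells under anti-VCAM1 with called doublets kept (1.10), Hspb1 in border macrophage-like cells after stroke with thinned cells (-0.70) and with cells weighted equally (-0.20), and Hspa1b in T-cell-like cells under anti-VCAM1 with thinned cells (0.47). The pair kept its sign in every comparison of the endothelial-like and microglia-like classes under each alternative run.

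The pair's endothelial anti-VCAM1 ratio was 0.92 with thinned cells, 0.24 with the span trend removed, 0.76 with cells weighted equally and 0.37 with cluster shares held equal, and the anti-VLA4 ratio was 0.99, 0.44 and 1.02 under the first 3 of these. Its microglia-like stroke ratio was 1.25 with thinned cells and 1.17 without the 1% of cells with most member UMIs, and its anti-VLA4 ratio 0.53 with cluster shares held equal.

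Endothelial members past 1.5-fold higher under anti-VCAM1 numbered 2 with doublets kept, with the span trend removed, without cluster 4 and with the unnamed arterial cluster included, and 0 with cluster shares held equal. Under anti-VLA4 they numbered 6 with thinned cells and 7 with TMM scaling. TMM raised the endothelial-like anti-VLA4 ratio of every gene by 0.14, members or not. In the main run 2.88% of all genes were past 1.5-fold higher under anti-VCAM1 and 3.12% under anti-VLA4. These shares were not computed under the alternatives. The count of 1 lower after stroke (Dnajb1) was 0 with cells named on their own markers, Leiden resolution 0.5, doublets kept, a total without mitochondrial, ribosomal, haemoglobin and Malat1 UMIs, TMM scaling, without the 1% of cells with most member UMIs, cells weighted equally, a pseudocount of 10 CPM or the arterial cluster included. In microglia-like cells 1 member was past 1.5-fold higher with doublets kept under each antibody. The cause of these shifts was not tested. Alternatives on shared barcodes, cluster 4, the arterial cluster and cluster shares were chosen after seeing the data. Hspb1 in leukocytes, and T-cell-like values, are limited by few UMIs.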
